A study of Mus musculus with 15 samples.

Results

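Tal1, Lmo2, Lyl1, Hhex, Mef2c, Erg, Kit, Gfi1, Tlx1 and Tlx3 are genes of the earliest thymic progenitors or oncogenes of T-cell acute lymphoblastic leukemia (T-ALL). The 10 genes were taken by name from 20665 autosomal protein-coding RefSeq genes on GRCm38, and each was read as a window of its gene span plus 20 kb on each side. The rule that names them uses no measured value, but the list was drawn up with earlier results of these data known. The windows run from 42.8 kb at Tlx3 to 267.4 kb at Erg, because the spans run from 2.8 kb to 227.4 kb.

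Blood progenitors that enter the thymus carry a stem cell program, which includes the receptor Kit and transcription factors such as Tal1, Lyl1, Lmo2, Hhex, Mef2c and Erg, and most of it is silenced as the cells commit to the T lineage. The basic helix-loop-helix (bHLH) proteins Tal1 and Lyl1 pair with E proteins on the DNA letters called an E-box, and Lmo2 and Ldb1 bridge them to GATA factors. In human T-ALL several of these genes are switched on again, often by translocation, and the homeobox genes Tlx1 and Tlx3 are switched on in cells that do not normally use them.

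The study mapped chromatin in EL4, an established mouse lymphoma line labelled as T lymphocyte lymphoma of strain C57BL/6N, in 1 untreated condition. Chromatin immunoprecipitation with sequencing (ChIP-seq) was run for H3K4me3, H3K9ac, H3K27ac, H3K36me2 and H3K27me3, and open chromatin was mapped by ATAC-seq, with 2 replicates each. The methods call the replicates technical, so every SD here is a technical spread over n = 2 lists of 1 line. The 12 lists come from 12 of the 15 labelled samples. The others, input DNA and RNA-seq, were not used here, so expression was not examined. The lists hold between 17519 intervals (ATAC-seq replicate 1) and 46015 intervals (H3K27me3 replicate 1), with positions but no heights, scores or read counts. The depth behind them is unknown, and the lack of an interval cannot be told apart from a signal too weak to be called or a stretch to which reads could not be mapped.

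H3K4me3 lies at active promoters, H3K9ac and H3K27ac at active promoters and enhancers, and these are called active marks below. H3K36me2 is spread over bodies of genes and the stretches between them, and H3K27me3 is set by Polycomb repressive complex 2 on silenced genes. A window was said to carry an assay when each of the 2 replicate lists had an interval that shared at least 1 bp with it. The start window ran from 3 kb upstream to 2 kb downstream of each RefSeq transcript start, and for Lmo2, whose strand was not in the tables used here, both ends of the span were taken. The same was done for the comparison genes Fli1, Spi1, Tlx2, Ets1, Thy1, Cd2 and Csf1r, so that an interval called at the start of one of these may lie at its other end. A transcript start inside the span of such a gene was not examined.

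The line was checked against marker genes of blood cell types. An active mark was at the start in both replicates at 8 of 8 T cell markers (Cd3e, Cd3d, Cd3g, Lck, Cd5, Lat and, at either end of the span, Thy1 and Cd2) and at 0 of 5 myeloid markers. It was there at 2 of 5 erythroid and mast cell markers, Klf1 and Cpa3. Over the 16457 autosomal protein-coding genes with a listed start the share was 48.3%.

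The 10 windows fell into 4 kinds. Lmo2, Lyl1, Mef2c and Gfi1 carried at least 1 active mark and no H3K27me3 in both replicates, as did 50.6% of all autosomal protein-coding genes. Tlx1 and Tlx3 carried H3K27me3 and no active mark, against 16.5% of all genes. Tal1 and Kit carried both, against 14.9%, although on separate stretches of the window. Hhex and Erg carried neither, against 18.0%, and their windows held H3K36me2 in both replicates. Each of the 10 windows carried at least 1 of the 6 assays in both replicates. Only 14.6% of all gene windows carried none in both, so 10 of 10 lies close to the share at large.

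**Figure D1:**
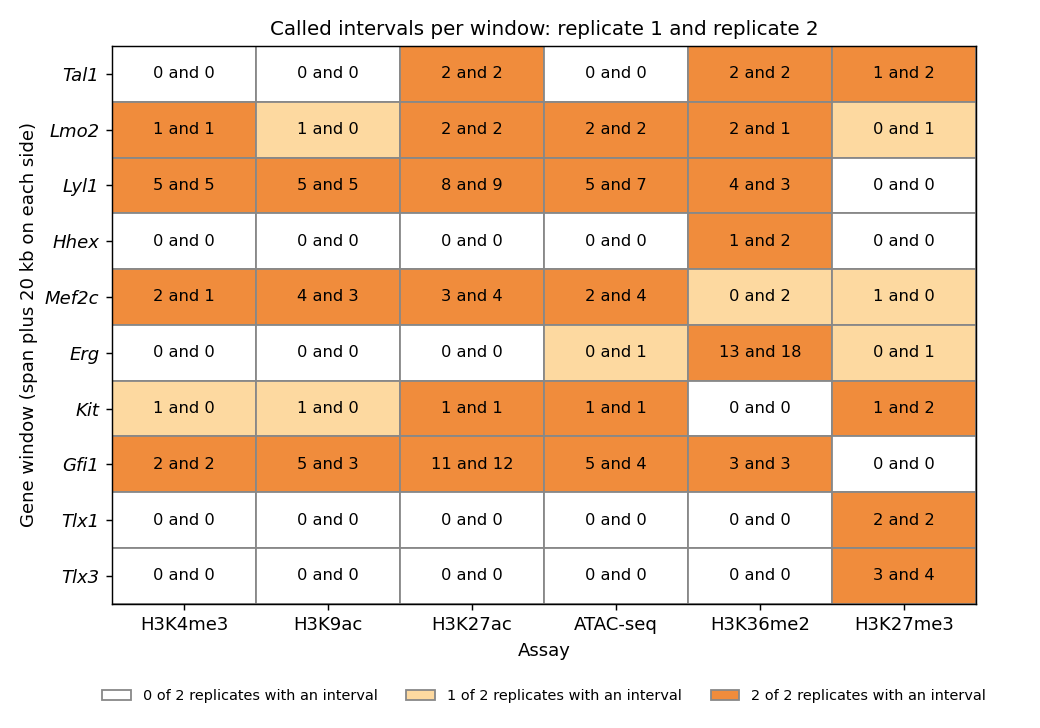
Number of called intervals in each gene window (rows, gene span plus 20 kb on each side) for each assay (columns), written as replicate 1 and replicate 2, with darker shading for more replicates with an interval. Lyl1 and Gfi1 hold all 3 active marks, ATAC-seq and H3K36me2, Tlx1 and Tlx3 hold H3K27me3 only, and Hhex holds H3K36me2 only.

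Read by assay, the active marks were in fewer of these windows than in windows at large, apart from H3K27ac. H3K4me3 was in both replicates in 4 of 10 windows, against 63.9% of all genes, and H3K9ac was in 3 of 10, against 62.4%. H3K27ac was in 6 of 10, against 63.8%, and ATAC-seq was in 5 of 10, against 60.5%. H3K36me2 was in 6 of 10, against 61.5%, and H3K27me3 was in 4 of 10, against 31.4%. The H3K27ac, ATAC-seq, H3K36me2 and H3K27me3 counts thus lie close to the shares over all genes, and with 10 windows each gene moves a share by a large step.

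At the start of the gene the active marks were called at few members. H3K4me3 was in the start window of 2 of 10 genes, Lyl1 and Gfi1, against 47.7% of genes with a listed start. H3K9ac was there at the same 2 genes, against 47.1%, and so was H3K27ac, against 47.3%. ATAC-seq was in the start window of Gfi1 alone, against 43.3%. H3K36me2 was in the start windows of Lyl1, Erg and Gfi1, against 28.0%, and H3K27me3 in that of Tlx1 in both replicates, against 10.5%. Without the flanks, no gene span carried H3K27me3 in both replicates, against 16.8% of all spans. H3K4me3 and H3K9ac were each on 3 spans, those of Lyl1, Mef2c and Gfi1, against 50.7% and 49.3% of all spans. H3K27ac and ATAC-seq were on the same 3 and on Kit, that is 4 of 10, against 50.4% and 45.3%, and H3K36me2 was on 4 of 10, against 44.7%.

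**Figure D2:**
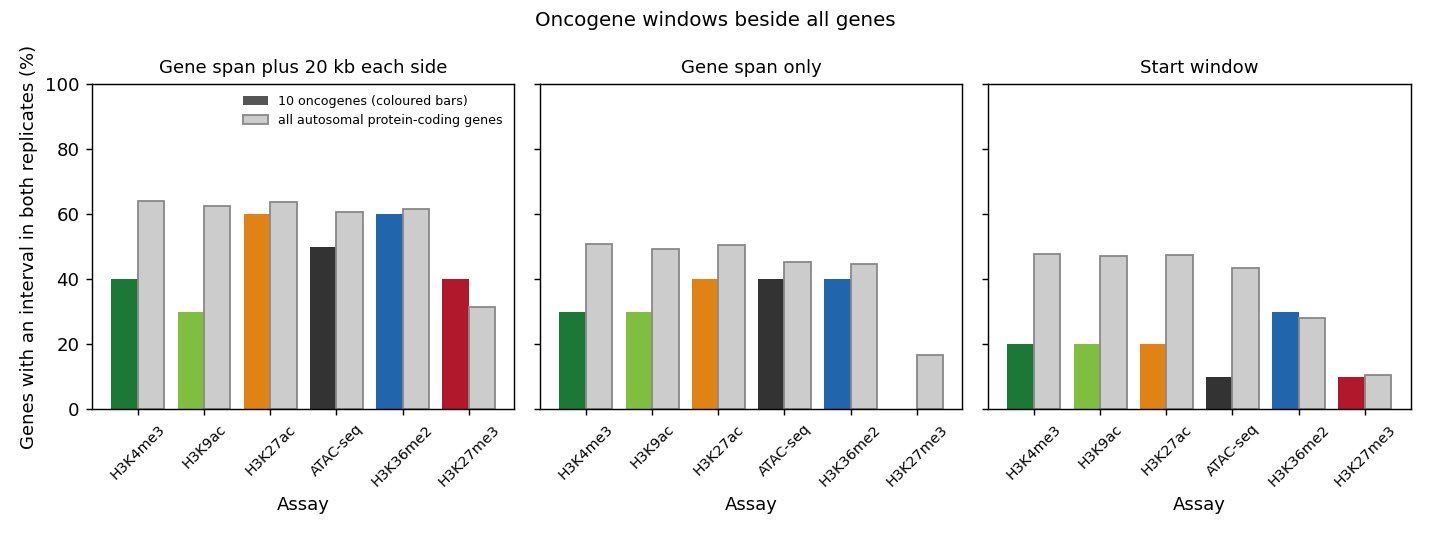
Percent of the 10 oncogenes (coloured bars) and of all autosomal protein-coding genes (grey bars; in the right panel those with a listed start) with an interval in both replicates, for the window with flanks, the gene span and the start window. H3K4me3 stood at 4 of 10 windows and 2 of 10 starts, against 63.9% and 47.7% of all genes.

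Gfi1, a zinc finger repressor that thymocytes and blood progenitors use, had an active start with the longest stretch of active marks among the 10 genes. The gene lies on the minus strand at chr5:107716655-107725805. At the start, 1 H3K4me3 interval spanned chr5:107723033-107728721 in replicate 1 and chr5:107723099-107728444 in replicate 2, that is 5689 bp and 5346 bp. Another, short H3K4me3 interval lay about 6 kb upstream in both replicates, with widths of 277 bp and 245 bp. H3K27ac gave 11 and 12 intervals, H3K9ac 5 and 3, and ATAC-seq 5 and 4. Joined across assays and replicates where less than 1 kb apart, they formed a site of 9605 bp over the start, from 6.8 kb upstream to 2.8 kb into the gene, and all 4 assays were in it in both replicates.

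H3K27ac went on through the body of Gfi1, from 3.9 to 8.7 kb past the start, in 6 intervals of each replicate. ATAC-seq was there in both replicates, at 7.6 to 7.8 kb in replicate 1 and 7.4 to 7.7 kb in replicate 2, and H3K9ac in replicate 1. H3K27ac also lay 12.6 to 13.5 kb upstream, within the lncRNA Gm42147, with widths of 891 bp and 246 bp. H3K27ac covered 23.1% and 23.7% of the Gfi1 window (23.4% ± 0.411, SD, n = 2), H3K4me3 11.8% ± 0.539, H3K9ac 13.4% ± 0.233 and ATAC-seq 5.35% ± 0.416. The replicate lists overlapped closely here, with a Jaccard index (shared bp over bp in either) of 0.937 for H3K4me3 and 0.972 for H3K36me2.

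H3K36me2 lay on both sides of the outer Gfi1 start and not over it. An upstream interval ended 2.2 kb upstream of the outer start in both replicates, and the next began 0.2 kb inside the gene in both, at chr5:107725599, running to 9.6 kb in replicate 1 and 8.8 kb in replicate 2. H3K36me2 covered 87.0% and 84.5% of the window (85.8% ± 1.73). No H3K27me3 interval came nearer to the gene than 174.7 kb in replicate 1 and 171.1 kb in replicate 2.

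RefSeq gives Gfi1 an outer start at chr5:107725805 and an inner start at chr5:107724343. The 250 bases upstream of each are shown because the assays separate them. All 3 active marks covered 100% of both promoters (300 bp, from 250 upstream to 50 downstream of the start) in both replicates, ATAC-seq covered 100% of the outer promoter and 0.0% of the inner one, and H3K36me2 the reverse. The sequences are from RefSeq, GRCm38.p6, minus strand, at chr5:107725806-107726055 for the outer start and chr5:107724344-107724593 for the inner start. Capitals mark the E-box letters CANNTG and the letters GATA, searched on both strands.
Gfi1 outer start: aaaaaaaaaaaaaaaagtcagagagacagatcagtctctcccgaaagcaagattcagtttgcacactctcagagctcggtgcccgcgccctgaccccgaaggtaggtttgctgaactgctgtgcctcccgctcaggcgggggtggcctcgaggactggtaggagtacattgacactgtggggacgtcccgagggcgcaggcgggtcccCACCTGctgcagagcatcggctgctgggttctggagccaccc
Gfi1 inner start: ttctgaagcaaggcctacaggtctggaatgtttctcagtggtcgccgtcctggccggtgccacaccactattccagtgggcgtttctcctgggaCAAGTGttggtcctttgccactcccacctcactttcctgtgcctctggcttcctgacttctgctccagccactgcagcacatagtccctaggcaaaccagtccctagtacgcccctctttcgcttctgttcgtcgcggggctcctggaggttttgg

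Each Gfi1 stretch held 1 E-box and 0 GATA matches. The outer promoter had 16 CpG in 300 bp and an observed over expected CpG ratio of 0.641, and the inner one 10 CpG and 0.412, both at 58.0% GC. Over 20085 promoters of 16457 genes the medians were 14 CpG, a ratio of 0.586 and 57.0% GC.

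Lyl1, a bHLH factor of blood stem cells closely related to Tal1, was the other gene with an active start. It spans chr8:84701423-84704716 on the plus strand in a stretch dense with genes, between Trmt1 and Nfix. At the start, H3K4me3 lay at chr8:84701363-84703147 and chr8:84703305-84704705 in replicate 1, and at chr8:84701345-84703093 and chr8:84703399-84704672 in replicate 2. In each replicate the pair covers nearly the whole gene, which is 3.3 kb long. H3K9ac lay within the same stretch as 1 interval at the start and 1 from 2.2 to 3.1 kb in replicate 1 and 2.2 to 3.0 kb in replicate 2. H3K27ac had an interval over the start of 864 bp in replicate 1 and 888 bp in replicate 2. ATAC-seq was not at the start: its nearest interval within Lyl1 lay 2.4 to 2.6 kb into the gene in replicate 1 and 2.3 to 2.8 kb in replicate 2.

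The 20 kb flanks of Lyl1 held active sites of other genes. A site from 15.1 to 11.2 kb upstream touched Nacc1 and Trmt1, and a site from 20.8 to 23.2 kb past the start touched Nfix and the neighbouring G430095P16Rik. Both held all 4 assays in both replicates. An ATAC-seq site of 364 bp without an active mark lay in Nfix, 7.8 to 8.1 kb past the start. Of the 4 sites in the window, 3 were therefore in other genes, and the coverage of the window, 19.2% ± 0.477 for H3K4me3, 14.8% ± 0.346 for H3K9ac and 17.6% ± 1.01 for H3K27ac, counts them. H3K36me2 covered 88.4% and 95.8% of the window (92.1% ± 5.23), the highest cover by any assay among the 10 windows. In replicate 1 it broke off between 1.1 kb upstream and 0.1 kb downstream of the start, and in replicate 2 it ran through from 12.7 kb upstream to 8.5 kb past it.

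The bases upstream of the Lyl1 start are shown because active marks reach into them, from RefSeq, GRCm38.p6, plus strand, chr8:84701207-84701456. Capitals mark CANNTG and GATA on either strand.
Lyl1: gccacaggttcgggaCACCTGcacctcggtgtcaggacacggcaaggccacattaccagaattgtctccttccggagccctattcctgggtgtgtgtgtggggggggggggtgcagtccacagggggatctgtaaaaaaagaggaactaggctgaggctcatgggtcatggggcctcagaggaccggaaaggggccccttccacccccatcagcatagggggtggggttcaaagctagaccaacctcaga

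The stretch held 1 E-box and 0 GATA matches. H3K4me3 covered 48.0% and 54.0% of the 300 bp promoter in replicates 1 and 2, ATAC-seq covered 0.0% in both, and H3K36me2 covered 0.0% in replicate 1 and 100% in replicate 2. The promoter had 7 CpG at 60.0% GC and an observed over expected ratio of 0.261.

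**Figure D3:**
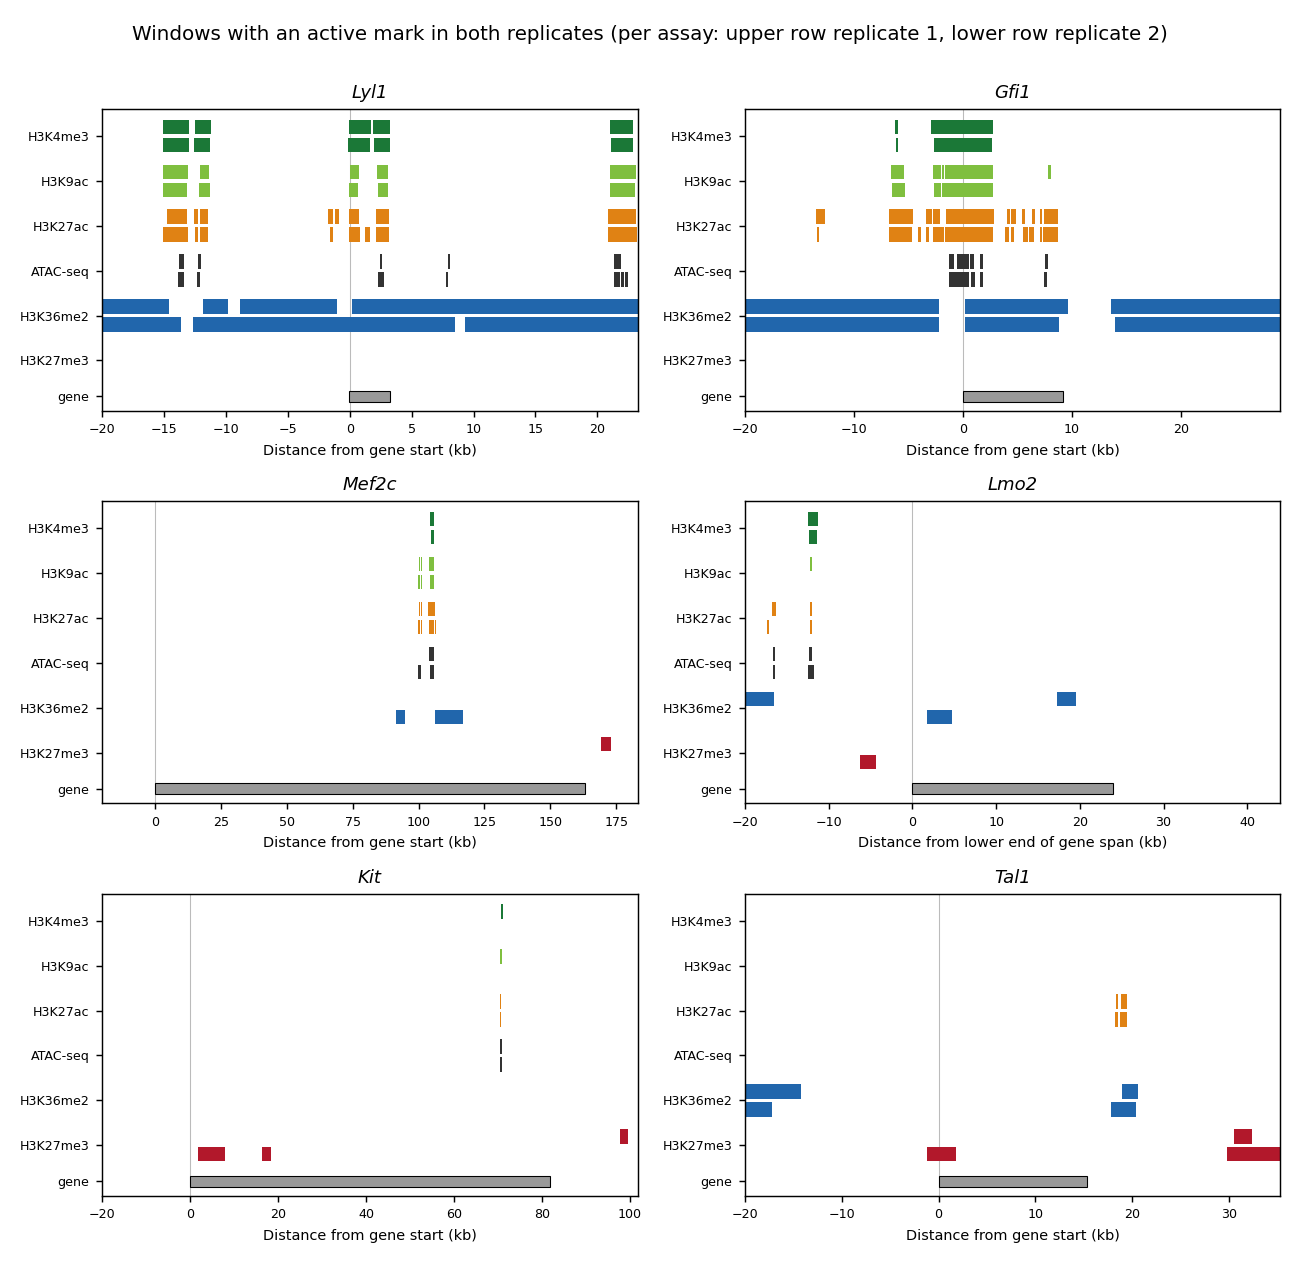
Called intervals in the 6 windows with an active mark in both replicates, drawn to scale as distance in kb along the transcript from the outermost RefSeq start (Lmo2: from the lower end of its span), with replicate 1 above replicate 2 for each assay and the gene span in grey. Marks sit over the start of Lyl1 and Gfi1, 103.6 to 106.4 kb into Mef2c, 70.4 to 71.0 kb into Kit, outside the gene span of Lmo2 and past the end of Tal1.

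Tal1, the bHLH factor whose misexpression is a classical lesion of human T-ALL, had no active mark within its span. The gene lies at chr4:115056426-115071755 on the plus strand. Its window held 1 active site, of H3K27ac alone, at chr4:115074735-115074975 and chr4:115075245-115075933 in replicate 1 and at chr4:115074673-115074967 and chr4:115075191-115075864 in replicate 2. The site lay 18.2 to 19.5 kb past the start and about 3 kb past the end of the gene, touched no RefSeq gene, and had a Jaccard index of 0.815. It covered 1.68% and 1.75% of the window (1.72% ± 0.0498). H3K36me2 lay there too, at chr4:115075401-115076999 in replicate 1, where it reached part of the second H3K27ac interval and not the first, and at chr4:115074201-115076799 in replicate 2, across both. H3K27ac in both replicates without H3K4me3 or H3K9ac in both was found at Tal1 and Kit, and in 1.2% of all gene windows. This state was not among the 4 kinds planned for the windows, so the difference cannot be read as a result about these genes. Kit had H3K4me3 and H3K9ac in replicate 1, and falls in this state only because both replicates were required.

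H3K27me3 in the Tal1 window differed between the replicates. Replicate 2 had an interval of 2999 bp at chr4:115055201-115058199, across both RefSeq starts, and covered 100% of both promoters. Replicate 1 had none there and covered 0.0%. In both replicates H3K27me3 lay downstream in Pdzk1ip1, the neighbouring gene, at chr4:115087001-115088799 and chr4:115086201-115093599, and this shared stretch is what put Tal1 among the windows with H3K27me3. H3K27me3 covered 3.25% and 15.5% of the window (9.36% ± 8.63), so the SD is near the mean. H3K4me3 came no nearer to the gene than 54.6 kb in replicate 1 and 54.5 kb in replicate 2. H3K36me2 also lay upstream in Stil, from 14.2 kb in replicate 1 and 17.2 kb in replicate 2.

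Lmo2, the bridging protein of the Tal1 complex, likewise had no active mark or ATAC-seq on its span, chr2:103957903-103981878. Both of its sites lay below the lower end of the span, in Gm39896. The nearer, at 12.4 to 11.3 kb, held H3K4me3 at chr2:103945487-103946640 in replicate 1 and chr2:103945553-103946508 in replicate 2 (Jaccard index 0.828). H3K27ac and ATAC-seq were in it in both replicates, and H3K9ac was there in replicate 1 alone, with 200 bp. The farther, at 17.4 to 16.3 kb, held ATAC-seq in both replicates. H3K27ac there was at chr2:103941165-103941565 in replicate 1 and chr2:103940517-103940758 in replicate 2, which share no base.

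Broad marks at Lmo2 did not repeat in place. H3K36me2 covered 8.9% and 4.69% of the window with 0 bp shared. H3K27me3 was absent in replicate 1 and in replicate 2 lay at chr2:103951601-103953599, between the nearer site and the gene. A window can thus count as carrying H3K36me2 in both replicates while the replicates mark different bases, which was the case at Lmo2 for H3K36me2 and at Kit for H3K27me3.

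Mef2c, a MADS-box factor of lymphoid progenitors and of immature T-ALL, had active sites deep in the gene and none at any of its 3 RefSeq starts. It spans 163.1 kb at chr13:83504017-83667079 on the plus strand. The main site, 103.6 to 106.4 kb past the outermost start, held all 4 assays in both replicates. H3K27ac there covered chr13:83607663-83610157 in replicate 1 and chr13:83607902-83610053 in replicate 2, with H3K4me3 at chr13:83608934-83609730 and chr13:83608733-83609792 inside. ATAC-seq lay at chr13:83608923-83609727 in replicate 1 and chr13:83608838-83609715 in replicate 2. A smaller site, 99.9 to 101.1 kb past the start, held H3K9ac and H3K27ac in both replicates and ATAC-seq in replicate 2. Both also lie in the span of the lncRNA Gm52043.

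The marks covered little of this long window, 1.61% ± 0.102 for H3K27ac, 1.18% ± 0.245 for H3K9ac, 0.506% ± 0.0219 for H3K4me3 and 0.689% ± 0.134 for ATAC-seq. H3K36me2 was absent in replicate 1 and in replicate 2 covered 7.09%, in 2 intervals at chr13:83595401-83598999 and chr13:83610201-83620999 that flank the sites. H3K27me3 covered 1.97% in replicate 1, past the end of the gene, and was absent in replicate 2.

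Kit, the receptor for stem cell factor that marks the earliest thymic progenitors, had a small site inside the gene and an unmarked start in the active lists. It spans chr5:75574987-75656722 on the plus strand. H3K27ac lay at chr5:75645410-75645718 in replicate 1 and chr5:75645420-75645721 in replicate 2 (Jaccard index 0.958), and ATAC-seq at chr5:75645503-75645739 and chr5:75645538-75645751. This places the site 70.4 to 71.0 kb past the start. H3K4me3 and H3K9ac were there in replicate 1 alone, with 245 bp and 244 bp. H3K27ac covered 0.254% and 0.248% of the window (0.251% ± 0.00407).

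H3K27me3 in the Kit window had 1 interval in replicate 1, at chr5:75672801-75674599 past the end of the gene. Replicate 2 had 2, at chr5:75576801-75582999 and chr5:75591401-75593399 near the start. No base was shared, and the covers of 1.48% and 6.73% gave 4.11% ± 3.72. H3K36me2 was not called in the Kit window, and its nearest interval was 171.3 kb away in replicate 1 and 137.5 kb in replicate 2.

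Hhex, a homeobox factor of blood progenitors and a known target of Lmo2 in thymocytes, had none of the active marks, ATAC-seq or H3K27me3 in its window. The gene lies at chr19:37434841-37440731 on the plus strand. H3K36me2 touched only the far end of the window, at chr19:37456201-37476599 in replicate 1 and at chr19:37456201-37457399 and chr19:37460401-37466399 in replicate 2. It covered 9.87% and 3.33% (6.6% ± 4.62). H3K27ac came to 25.5 kb of the gene in both replicates, just beyond the flank, and H3K4me3 to 53.4 and 53.3 kb. H3K27me3 was far off, at 282.8 kb and 269.6 kb.

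Erg, an ETS factor of blood stem cells, had H3K36me2 along the gene and little else. It spans chr16:95359169-95586600 on the minus strand. H3K36me2 gave 13 intervals in replicate 1 and 18 in replicate 2, covering 24.2% and 25.3% of the window (24.8% ± 0.792). The covers are close but the places are less so, with a Jaccard index of 0.258. The start window it touched was that of an inner RefSeq start, with an interval at chr16:95530801-95535399 in replicate 1 and chr16:95530601-95538799 in replicate 2. An ATAC-seq interval of 358 bp at chr16:95421389-95421746 was called in replicate 2 only, and an H3K27me3 interval at chr16:95326401-95341999, past the end of the gene, in replicate 2 only. The nearest H3K4me3, H3K9ac and H3K27ac intervals were 30.8 kb from the gene, upstream, in both replicates. H3K36me2 in both replicates without an active mark, H3K27me3 or ATAC-seq in both, the state of Hhex and Erg, was that of 3.0% of all gene windows.

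Tlx1 and Tlx3, the homeobox oncogenes that normal T cells do not use, had H3K27me3 beside the gene and no other assay in the window in any list. Both spans themselves were touched by no interval. At Tlx1, chr19:45150092-45156943 on the plus strand, H3K27me3 lay at chr19:45125401-45134799 and chr19:45138601-45149599 in replicate 1. In replicate 2 it lay at chr19:45129401-45135999 and chr19:45137001-45147799. The intervals nearest to the gene stopped 0.5 kb and 2.3 kb before its span. H3K27me3 covered 33.5% and 35.7% of the window (34.6% ± 1.51), with a Jaccard index of 0.751.

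At Tlx3, chr11:33200752-33203588 on the minus strand, H3K27me3 flanked the gene on both sides. Replicate 1 had 3 intervals, of which chr11:33205601-33217999 ended 2.0 kb upstream of the span. Replicate 2 had 4, of which chr11:33187601-33199599 came to 1.2 kb on the downstream side. The stretch upstream of Tlx3 is part of Ranbp17, in which the longest H3K27me3 interval, 47599 bp at chr11:33218801-33266399 in replicate 2, ran out of the window. H3K27me3 covered 36.1% and 58.0% (47.0% ± 15.5), with a Jaccard index of 0.341, so the replicates gave it different extents. H3K27me3 alone, without an active mark, ATAC-seq or H3K36me2 in both replicates, was found in 14.3% of all gene windows.

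The bases upstream of the Tlx1 start are shown because H3K27me3 was in its start window in both replicates, although it ended before these bases. They are from RefSeq, GRCm38.p6, plus strand, chr19:45150465-45150714, with CANNTG and GATA on either strand in capitals.
Tlx1: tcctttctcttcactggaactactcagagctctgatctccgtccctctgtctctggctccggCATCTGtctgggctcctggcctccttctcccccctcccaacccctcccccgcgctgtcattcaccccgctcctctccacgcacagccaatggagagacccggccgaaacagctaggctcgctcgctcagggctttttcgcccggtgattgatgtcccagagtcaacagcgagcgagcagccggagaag

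The stretch held 1 E-box and 0 GATA matches. The 300 bp promoter had 16 CpG at 61.7% GC and an observed over expected ratio of 0.593.

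**Figure D4:**
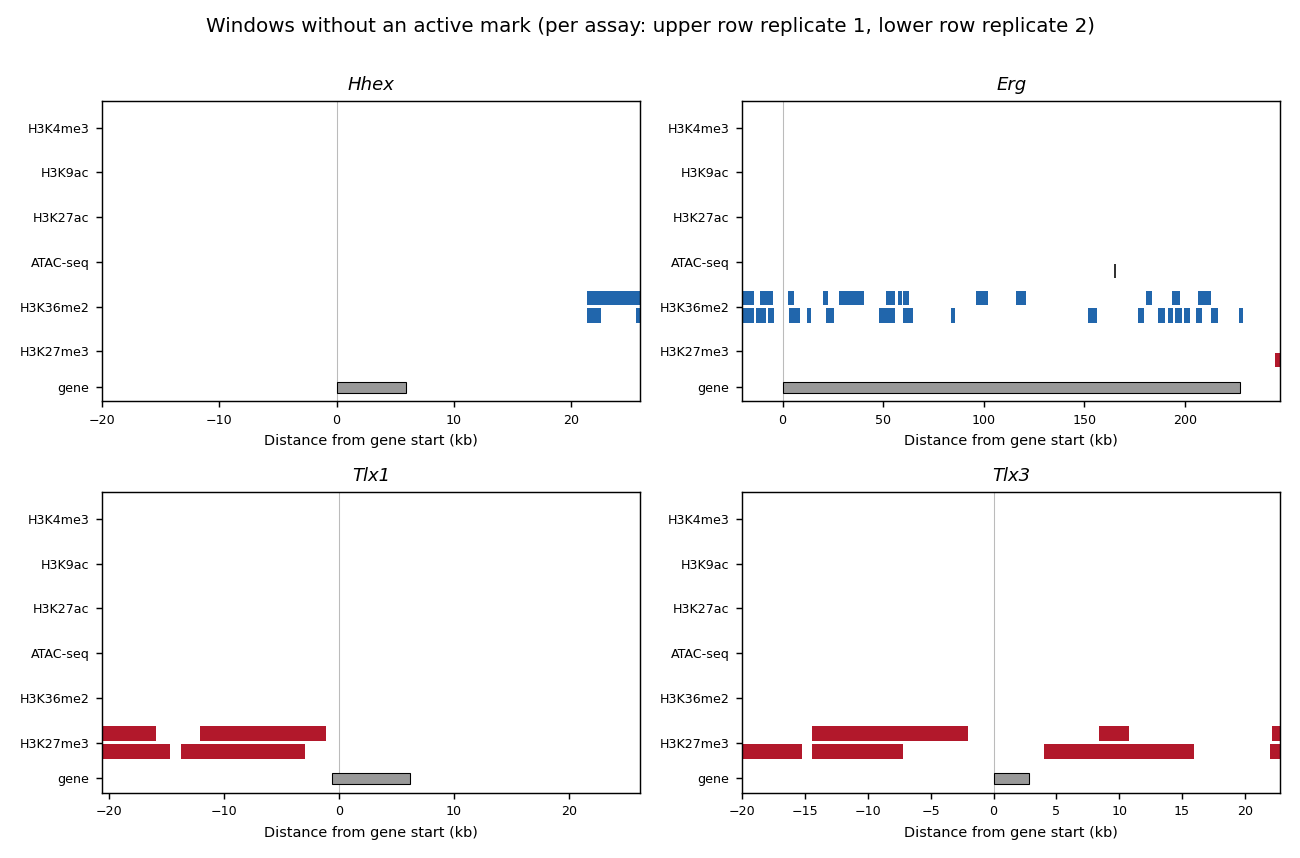
Called intervals in the 4 windows without an active mark in both replicates (Hhex, Erg, Tlx1 and Tlx3), drawn as distance in kb along the transcript from the outermost RefSeq start, with replicate 1 above replicate 2 for each assay and the gene span in grey. H3K36me2 runs along Erg and touches the far end of the Hhex window, while H3K27me3 lies beside Tlx1 and Tlx3 and leaves both gene spans free.

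H3K27me3 shared no base with H3K36me2, an active mark or ATAC-seq in any of the 10 windows, in either replicate. Such sharing was rare everywhere: at least 1 bp under both H3K27me3 and H3K36me2 occurred in 2.0% of all gene windows, under H3K27me3 and an active mark in 1.88%, and under H3K27me3 and ATAC-seq in 1.55%. Active marks and H3K36me2 did meet, but unevenly. Counting bases called in either replicate, of 30200 bp under an active mark in the 10 windows, 21648 bp (71.7%) were also under H3K36me2. Lyl1 gave 9064 of these bp (93.1% of its active bp) and Gfi1 10848 bp (81.9%). The share was 100% at Tal1, 26.5% at Lmo2, 5.64% at Mef2c and 0.0% at Kit. Of 8965 bp under ATAC-seq, 8176 bp (91.2%) were under an active mark. Neither share was computed over all gene windows, so neither can be read as a trait of these genes. Part of the Lyl1 bp lies at sites in other genes.

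In all, the active marks and ATAC-seq formed 14 sites in the 10 windows. All 4 assays were in 5 of them in both replicates: 3 at Lyl1 and 1 each at Mef2c and Gfi1. By place, 2 sites were at a start, 5 in the rest of the member gene, 6 in another gene and 1 in no gene.

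**Figure D5:**
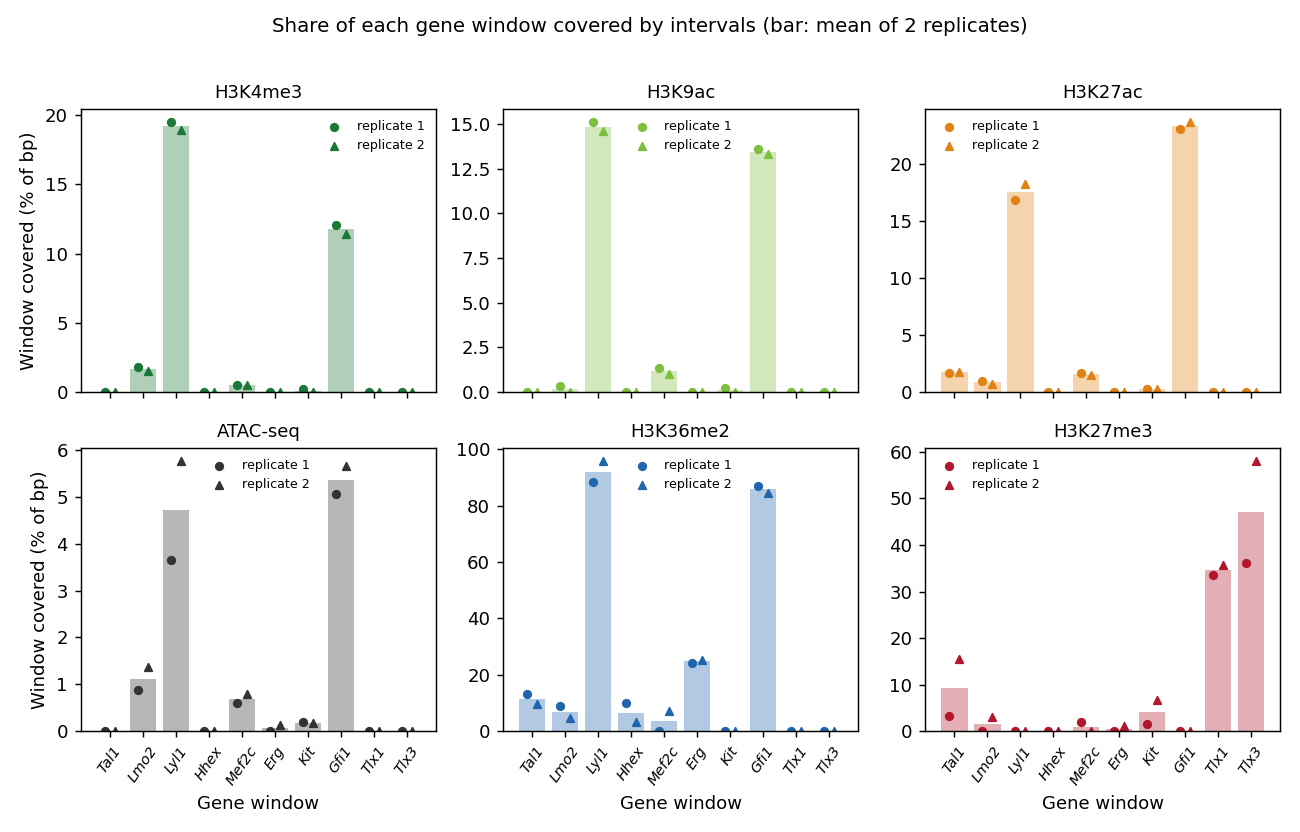
Percent of the bp of each gene window covered by intervals of each assay, with replicate 1 as circles, replicate 2 as triangles and bars at the mean of the 2 technical replicates. Active marks cover the most at Lyl1 and Gfi1, H3K36me2 at Lyl1 (92.1%) and Gfi1 (85.8%), and H3K27me3 at Tlx3 (47.0%) and Tlx1 (34.6%).

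The median window of the 10 had less cover by active marks than the median gene window. For H3K4me3 the median over members was 0.0503% (mean of the replicates), against 2.24% and 2.2% over all genes in replicates 1 and 2. For H3K27ac it was 0.557%, against 1.89% and 1.93%, and for ATAC-seq 0.126%, against 0.627% and 0.721%. For H3K36me2 it was 6.7%, against 16.1% and 15.6%, and for H3K27me3 1.27%, against 0.0% in both. These medians rest on few windows and some moved with the replicate: H3K4me3 was 0.101% in replicate 1 and 0.0% in replicate 2, and H3K27me3 0.739% and 2.09%. The windows were not matched for length, and a site in a long window, as at Mef2c, covers only a small percent of it.

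Promoter base composition is known to go with H3K4me3, which is found more often at promoters rich in CpG. A promoter was called CpG-rich when its observed over expected CpG ratio was at least 0.6 and its GC at least 50.0%. Of the 9 members in the promoter table, 6 had such a promoter: Tal1, Hhex, Erg, Kit, Gfi1 and Tlx3. H3K4me3 was at the start in both replicates at 1 of these 6, Gfi1, against 74.7% of 8210 genes with a CpG-rich promoter. Of the 3 others, Lyl1, Mef2c and Tlx1, it was at the start of Lyl1, against 20.9% of 8247 genes. Hhex had the most CpG, 37 in 300 bp, and the highest GC, 75.7%, yet carried no active mark. Its ratio of 0.878 was below those of Tlx3, 0.905, and the outermost Erg start, 0.941. Tlx1, at 0.593, lay just under the limit and Kit, at 0.621 and 0.652, just over it.

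H3K27me3 at the start in both replicates was found in 4.93% of genes with a CpG-rich promoter and in 16.1% of the rest. Tlx1 was the 1 member with it. Tal1, Kit and Tlx3 had it in 1 replicate each.

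Short motifs of blood and general transcription factors were counted in the member promoters beside all promoters. CANNTG was in 10 of the 16 member promoters, against 68.7% of all promoters, and GATA in 8 of 16, against 52.4%. GGAA, the ETS core, was in 16 of 16, against 95.6%, and TGTGGT, the RUNX core, in 0 of 16, against 14.8%. CCAAT was in 7 of 16, against 38.1%, and TATAAA in 3 of 16, against 12.7%. Both strands were searched in 300 bp, some genes have several starts, and the pair of Kit promoters overlap almost in full, so the 16 are not independent. A match is only a run of letters.

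Mef2c and Erg have windows of over 150 kb. Among the 2045 genes with windows of at least 150 kb, 51.2% carried H3K27me3 and 11.8% had neither an active mark nor H3K27me3, and among 18620 genes with shorter windows 29.2% and 18.7%. The other assays were in slightly fewer of the long windows than of the short ones, for example H3K4me3 in 62.2% and 64.1%, and H3K36me2 in 57.8% and 61.9%. Erg had neither in a window of 267.4 kb.

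Of 8 partners of Tal1 and Lmo2, 6 had an active mark at the start in both replicates, against 48.3% of all genes with a listed start: Ldb1, Tcf3, Tcf12, Gata3, Runx1 and, at either end of its span, Fli1. These are the adaptor that binds Lmo2, the E proteins, the T cell GATA factor, a RUNX factor and an ETS factor. The Fli1 window also carried H3K27me3 in both replicates, but not at either end of the span. The blood GATA factors Gata1 and Gata2 had active marks in the window but not at the start. Whether those marks lie in neighbouring genes was not examined. Gata1 lies on chromosome X, while the 48.3% is over autosomal genes. Tal1 and Lmo2 themselves had none at the start.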

How the data were processed

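The deposited values are positions only. Per the labels' processing notes the authors aligned reads with STAR 2.5, used Picard against PCR duplicates and called peaks with MACS2 on GRCm38, and the methods name Epic for the broad marks. The authors deposited 1 list per replicate with chromosome, start and end in bp and no score, so replicates were compared by overlap and by bp. The methods state that reads on the sex chromosomes were discarded, yet the lists hold intervals on chromosome X. All 10 members are autosomal.

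Spans came from the RefSeq gene table of GRCm38.p6, which gives no strand. Strand and starts came from the RefSeq promoter table, which had 9 of the 10 members; Lmo2 was not matched. Intervals were intersected with Python 3.11.15, numpy 2.4.6 and pandas 2.3.3, with a minimum overlap of 1 bp. Counts over 12 lists and 20665 genes were checked with bedtools 2.31.1, with 0 differences, and the scripts were tested on simulated data. Percent covered is given as mean and SD over 2 technical replicates. Intervals of active marks and ATAC-seq within 1 kb were joined into sites. No test was made, since there is 1 condition. The planned comparison of member proteins was not made because no protein table was used here.

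All members are named, companion and marker genes are named within their lists, and another gene is named where an interval in a member window touches it. Sequences were printed for members with an active mark or ATAC-seq at the start in both replicates, or H3K27me3 there. A further marker list is not reported here. Members, lists and motifs were chosen with earlier results of these data known. Other flanks, start windows, width limits, gene sets and replicate rules were tried.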

Additional observations from a re-analysis of the deposited data

How the results depend on the processing

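The lists hold no scores, so no stricter peak threshold could be tried, and the unknown depth limits every statement on a missing interval. Over all settings, 39 comparisons of a summary value with its main setting moved by more than 1.5 times or beyond the replicate SD. The other 117 did not, and the cause was not tested. The choice of flank moved more of them than any other choice. With 2 replicates, leaving 1 out can seldom move a median cover beyond their SD, so that check is weak. With no flank, H3K27me3 was in 0 of 10 members, and 0 windows carried H3K27me3 alone, 0 both it and an active mark, and 6 neither. The median percent covered was then 0.0 for H3K27ac, 0.0394 for ATAC-seq, 2.21 for H3K36me2 and 0.0 for H3K27me3. With 5 kb, H3K27me3 was in 2 members and 0 windows carried both. With 50 kb, H3K9ac was in 6 members and ATAC-seq in 8, 1 window carried H3K27me3 alone, 5 both and 0 neither, and the medians were 1.32 for H3K4me3, 1.08 for H3K9ac, 1.49 for H3K27ac, 0.424 for ATAC-seq and 18.5 for H3K36me2. With an interval in either replicate enough, H3K9ac was in 5 members and H3K27me3 in 7, 2 windows were active, 4 both and 1 neither, and H3K27me3 was at 4 starts. The count of windows with both was 1 under each of 3 stricter rules: base pairs shared by the replicates, intervals of at least 500 bp, and no interval that lies only in another gene. ATAC-seq was in 3 members with intervals of at least 500 bp. With both gene ends taken, ATAC-seq was at 2 starts and H3K27me3 at 2, and within 1 kb of the start H3K27me3 was at 0. Leaving out either replicate gave 3 to 5 members with H3K9ac, 1 to 2 windows with neither, 2 to 3 starts with H3K27me3 and a median of 5.89 to 9.39 for H3K36me2. Sites numbered 29 when joined only where intervals overlap or adjoin and 12 within 3 kb, both rules chosen after seeing the data. Over RefSeq genes of any type the share with H3K4me3 was 45.8%, and with chromosome X added 62.9%. No paired analysis was possible because no result comes from a test.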

Other observations

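Of 10 stem and progenitor factors outside the member list, 5 had an active mark at the start in both replicates, close to the 48.3% of all genes with a listed start: Flt3, Myb, Gfi1b, Hlf and, at either end of its span, Spi1. In the order Spi1, Flt3, Myb, Gfi1b and Hlf, these are an ETS factor of progenitors, a cytokine receptor, a proto-oncogene, the sister gene of Gfi1 and a PAR bZIP factor. By window, Meis1 and Bcl11a carried H3K27me3 and no active mark, Cd34 and Mecom carried neither, and Hoxa9 had active marks in the window but not at the start. Hlf carried H3K27me3 beside its active marks.

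Of 8 other oncogenes known from T-ALL, 5 carried H3K27me3 and no active mark in the window, against 16.5% of all genes: Lmo1, Tal2, Nkx2-1, Nkx2-5 and Lmo3. Mycn carried neither. Tlx2 had active marks in the window and none at either end of its span, and Spib, an ETS factor, had them at the start. Of 5 factors of committed T cells, Tcf7, Bcl11b and Lef1 had an active mark at the start. Lef1 also had H3K27me3 in its start window in both replicates. Notch1 had active marks elsewhere in the window, and Ets1 had them in the window but at neither end of its span. Over the 31 genes of these lists and the Tal1 and Lmo2 partners, 15 had an active mark at the start in both replicates, close to the 48.3% over all genes with a listed start. By window, 18 were active, 7 carried H3K27me3, 3 both and 3 neither, against 50.6%, 16.5%, 14.9% and 18.0% of all autosomal protein-coding genes. Gata1, on chromosome X, is among the 31. Marks in these windows were not split into those of the gene and those of its neighbours.

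By window, 1 of 5 myeloid markers, Itgam, was active without H3K27me3, against 50.6% of all genes. Another 2, Lyz2 and Csf3r, carried both active marks and H3K27me3, against 14.9%. Csf1r carried H3K27me3 and no active mark, against 16.5%, and Cebpa carried neither, against 18.0%. Marks of neighbouring genes were not set apart here.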
